A study of Rattus norvegicus with 4 samples.

Results

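Parous and virgin rat mammary glands were compared 3 weeks after a carcinogen, on 1 expression array for each. The parous+MNU glands came from 5 Lewis rats that delivered at 87 days of age, suckled their pups through 21 days and lost them at 108 days. After 28 days of involution each of these animals received N-methyl-N-nitrosourea (MNU), an alkylating agent that methylates DNA and induces mammary tumours in rats, once into the peritoneum at 50 mg/kg and was examined at 157 days. The AMV+MNU glands came from 5 virgin Lewis rats of equal age (AMV stands for age-matched virgin) given the same dose and examined at the same age. A parous and an AMV group of 5 rats each, examined at 136 days with no carcinogen, are used below only to set each gene beside its level there. Against those glands, MNU and 3 more weeks of age cannot be told apart, whereas both MNU groups had the same age. Lewis is an inbred strain, whole-gland total RNA was measured, and the labels do not say if the 5 RNAs of a group were pooled.

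Members of the comparison were the features with a value on both the parous+MNU and the AMV+MNU array, 19306 of 20500 features. Of these, 10345 passed a filter on dim features, an intensity above 214.9 units on at least 1 of the 4 arrays, and 8961 did not. The kept features that carry 1 gene symbol stood for 5769 genes, each given by its brightest kept feature, and 160 of these genes passed the filter only through an array without MNU. Intensities are given in units after the arrays were scaled to each other, and a difference is log2 parous+MNU minus log2 AMV+MNU, so 1 is a 2-fold difference. Values under a floor of 176.9 units were set to it before logs were taken, and a gene under the floor on 1 side has only a bound. With 1 array a group no difference has a replicate check, no test was possible, and precision is limited by how few arrays there are.

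The gland is a tree of ducts and alveoli, lined by luminal cells over contractile basal cells, inside a pad of fat cells and fibroblasts. Pregnancy fills it with alveoli that secrete milk proteins and fat. After weaning, involution removes most of them and brings in macrophages, lymphocytes and plasma cells. In rats, a full-term pregnancy lowers the number of mammary tumours that MNU induces, and the comparison sets parous and virgin gland side by side in the weeks after exposure. Whole-gland RNA does not tell fewer cells of a type from less RNA per cell.

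The deposited intensities had medians of 179 units for parous+MNU, 221 for AMV+MNU, 226 for parous and 238 for AMV, and these arrays had 795, 666, 421 and 390 blanks. Defining genes of the gland were present on both MNU arrays. Krt14, a basal keratin, read 1041 units on parous+MNU and 1176 on AMV+MNU. The basal regulator Tp63 read 717.1 and 676.7, and the epithelial adhesion gene Epcam 6760.0 and 5138. Esr1 and Pgr, the genes of the oestrogen and progesterone receptors, did not pass the filter.

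Few genes differed much. Of 5769 genes, 10 reached 2-fold higher on parous+MNU (0.173%) and 15 reached 2-fold lower (0.260%). At 1.5-fold the counts were 53 higher (0.919%) and 81 lower (1.40%), and 4978 genes, 86.3%, lay within 1.25-fold. The differences had a median of -0.01 and a robust SD of 0.20. Counted by features, named or not, 17 of 10345 reached 2-fold higher (0.164%) and 18 reached 2-fold lower (0.174%). The balance between higher and lower genes depended on the scaling: 5 higher and 63 lower as deposited, where the median of all genes was -0.37, and 7 higher and 18 lower with median scaling. Over 5 equal classes of genes by brightness the robust SD lay between 0.18 and 0.22 and the median between -0.02 and 0.00.

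**Figure D1:**
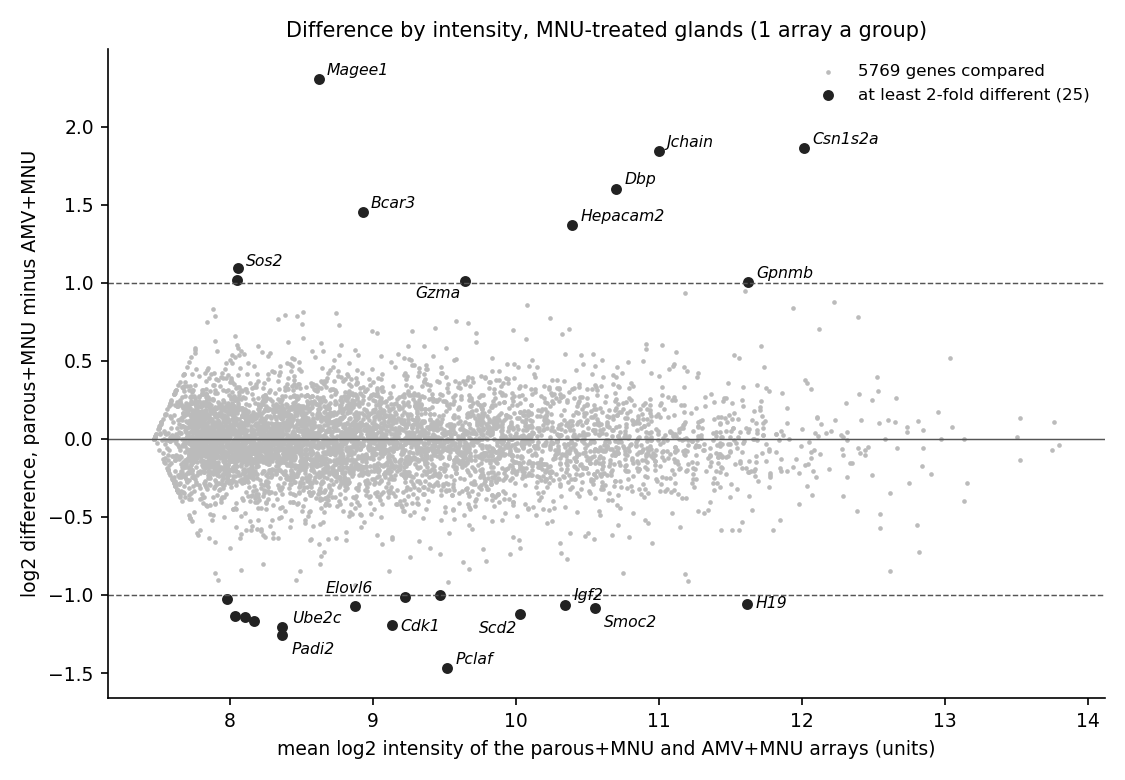
Each grey point is 1 of 5769 genes, placed by its mean log2 intensity on the parous+MNU and AMV+MNU arrays (horizontal axis) and its log2 difference, parous+MNU minus AMV+MNU (vertical axis); black points are the 25 genes beyond the dashed lines at 2-fold, most with their names. Magee1 is highest at 2.31 and Pclaf lowest at -1.47, and most genes lie close to 0 at every intensity.

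A gene of milk was the highest among the bright genes. Csn1s2a, which encodes an alpha-S2 casein, read 7864 units on parous+MNU and 2164 on AMV+MNU, with 11349 on parous and 780.1 on AMV. It was 3.63-fold higher on the parous+MNU array, a log2 difference of 1.86, and the virgin array with MNU lay between the untreated virgin array and both parous arrays. Wap, the gene of whey acidic protein, read 4313 units on parous+MNU and 2238 on AMV+MNU, with 6685 on parous and 1656 on AMV. Its difference of 0.95 is just under 2-fold. Of 16 genes listed for milk proteins and their secretion, 8 could be compared. Of these, 7 lay above 0 and 1 below, with a median of 0.49, where all genes had a median of -0.01 and 47.0% lay above 0. Luminal epithelial genes, which mark the cells that make milk, had a median of 0.09 over 14 genes, and their part in the milk values was not tested.

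The genes of milk fat release were part of that list. Xdh, xanthine dehydrogenase, which takes part in coating the milk fat droplet, read 2372 units on parous+MNU and 1554 on AMV+MNU, a difference of 0.61. Muc1, a mucin of the apical membrane, differed by 0.53, Fabp3, a fatty acid binding protein, by 0.45, and Mfge8, which encodes lactadherin, by 0.32. Plin2, a coat protein of lipid droplets, stood at 0.23 and Folr1, a folate receptor, at -0.17. The main caseins were not measured in this comparison: Csn1s1, Csn3 and Lalba, the gene of alpha-lactalbumin, were blank on all 4 arrays. Csn2, the gene of beta-casein, was blank on both parous arrays and read 1406 units on AMV+MNU and 1079 on AMV, and Glycam1 was blank on both parous arrays and read 1313 and 1136 units on the virgin arrays. What a blank stands for is not given in the sources used here.

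Of immune cell genes, Jchain, Gzma and Cxcl13 were at least 2-fold higher on parous+MNU. Jchain, which links antibody units in secreted IgA and IgM, read 3873 units on parous+MNU and 1079 on AMV+MNU, with 4729.5 on parous and 1058 on AMV. It was 3.59-fold higher with MNU and 4.47-fold higher without, and the virgin arrays differed little from each other. Gzma, a granule protease of cytotoxic T and NK cells, read 1134 units on parous+MNU and 563.7 on AMV+MNU, with 1081 on parous and 488.4 on AMV. That is a difference of 1.01 with MNU and 1.15 without. Cxcl13, a chemokine that draws B cells to follicles, read 377.1 units on parous+MNU, 186.0 on AMV+MNU and 206.0 on AMV, and was blank on the parous array. Its difference was 1.02, but Cxcl13 passed the filter through parous+MNU alone and so had to be higher there. With median scaling it stood at 0.97, under 2-fold.

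Most other T and NK cell genes differed by less. Of 21 listed, 13 were compared, 11 above 0, against 47.0% of all genes, and 2 below, with a median of 0.23. Gzma was the only one of these at least 2-fold higher. Klrd1, which encodes the NK receptor chain CD94, differed by 0.35, Gzmm, another granzyme, by 0.32, Ctsw, a protease of cytotoxic cells, by 0.32, Ccl5, a T cell chemokine, by 0.29 and the T cell receptor chain Cd3d by 0.25. Cd8a stood at -0.12. Among the plasma cell genes only 3 of 13 were compared: beside Jchain these were Derl3, which removes misfolded protein from the endoplasmic reticulum, at 0.31, and Sdc1, a proteoglycan of plasma cells and epithelium, at -0.58. The median of the 3 was 0.31.

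Macrophage genes split. Gpnmb, a glycoprotein of phagocytic macrophages, read 4464 units on parous+MNU and 2226 on AMV+MNU, with 5732 on parous and 2534 on AMV, 2.01-fold higher with MNU. Mmp12, macrophage elastase, read 660.5 units on parous+MNU and 413.0 on AMV+MNU, with 965.8 on parous and 383.7 on AMV, a difference of 0.68. Without MNU the difference was 1.18 for Gpnmb and 1.33 for Mmp12, and in both genes the parous array without MNU was the highest. The list as a whole lay near all genes: over 11 of 24 genes the median was 0.01, with 6 above and 5 below 0. Cd14, a receptor for bacterial lipopolysaccharide, differed by 0.25 and Tyrobp, a signalling adaptor, by 0.22. The mannose receptor Mrc1 stood at -0.18 and the inhibitory Fc receptor Fcgr2b at -0.21. Of the MHC class II presentation genes 3 of 9 were compared, with a median of -0.03: Cd74, the invariant chain, at -0.03, RT1-DMa at -0.08 and Ciita, the transactivator of class II genes, at 0.08.

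Secreted defence proteins went both ways. Reg3a, an antibacterial lectin, read 500.3 units on parous+MNU and 1002 on AMV+MNU, with 472.4 on parous and 1384 on AMV. That is just over 2-fold lower on parous+MNU than AMV+MNU, and 2.93-fold lower on parous than AMV. Its relative Reg3b differed by -0.63. S100a9, a calcium-binding protein of neutrophils, differed by 0.77, Lcn2, which binds bacterial iron carriers, by 0.40, complement C3 by 0.40 and Cp, the copper oxidase ceruloplasmin, by 0.27, and the protease inhibitor gene Serpina3n stood at -0.33. Over 10 of 22 acute phase and innate defence genes the median was 0.24, with 7 above 0, against 47.0% of all genes. Interferon response genes had a median of -0.21 over 12 of 26, with 8 below 0 (66.7%), against 52.7% of all genes. Psmb9, a subunit of the immunoproteasome, differed by -0.46, Irf7, a transcription factor of the interferon response, by -0.44, Usp18, which removes ISG15, by -0.31 and Cxcl10, a T cell chemokine, by -0.27. Above 0 lay Oasl at 0.16, Ifitm1 at 0.14, Irf1 at 0.13 and Ifit3 at 0.03. No interferon gene was 1.5-fold different.

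Dbp, a transcription factor at the output of the circadian clock, read 2904 units on parous+MNU and 956.0 on AMV+MNU, with 3016 on parous and 2011 on AMV. The AMV+MNU array was the lowest of the 4, and the difference with MNU was 1.60, or 3.04-fold. Tef, a close relative of Dbp that binds the same DNA element, read 785.6 units on parous+MNU and 486.0 on AMV+MNU, with 782.1 on parous and 720.3 on AMV, a difference of 0.69, with the AMV+MNU array again lowest. All 7 clock genes compared, of 19 listed, lay above 0, against 47.0% of all genes, with a median of 0.21. Per3, a repressor of the clock, differed by 0.27, Per2 by 0.21, the activator Npas2 by 0.14, and Per1 and Bhlhe40 by 0.07 each. On the AMV+MNU array 5 of these 7 genes had their lowest value of the 4 arrays, against 23.4% of all genes. The labels used here give no time of day for the collection of the glands.

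Both Bcar3, an adaptor that lets breast cancer cells grow despite antioestrogens, and Hepacam2, an immunoglobulin-like adhesion protein, were above 2-fold. Bcar3 read 806.6 units on parous+MNU and 294.2 on AMV+MNU, with 757.7 on parous and 348.1 on AMV, which gives 1.45 with MNU. Hepacam2 read 2156 units on parous+MNU and 836.0 on AMV+MNU, with 1992 on parous and 918.3 on AMV, which gives 1.37. Without MNU the difference was 1.12 for Bcar3 and 1.12 for Hepacam2. Bcar3 has another pair of features, both below the filter, and the brighter of them read 163.6 units on parous+MNU and 200.6 on AMV+MNU, so the higher reading of Bcar3 was not repeated there. The array holds 1 feature of Hepacam2.

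**Figure D2:**
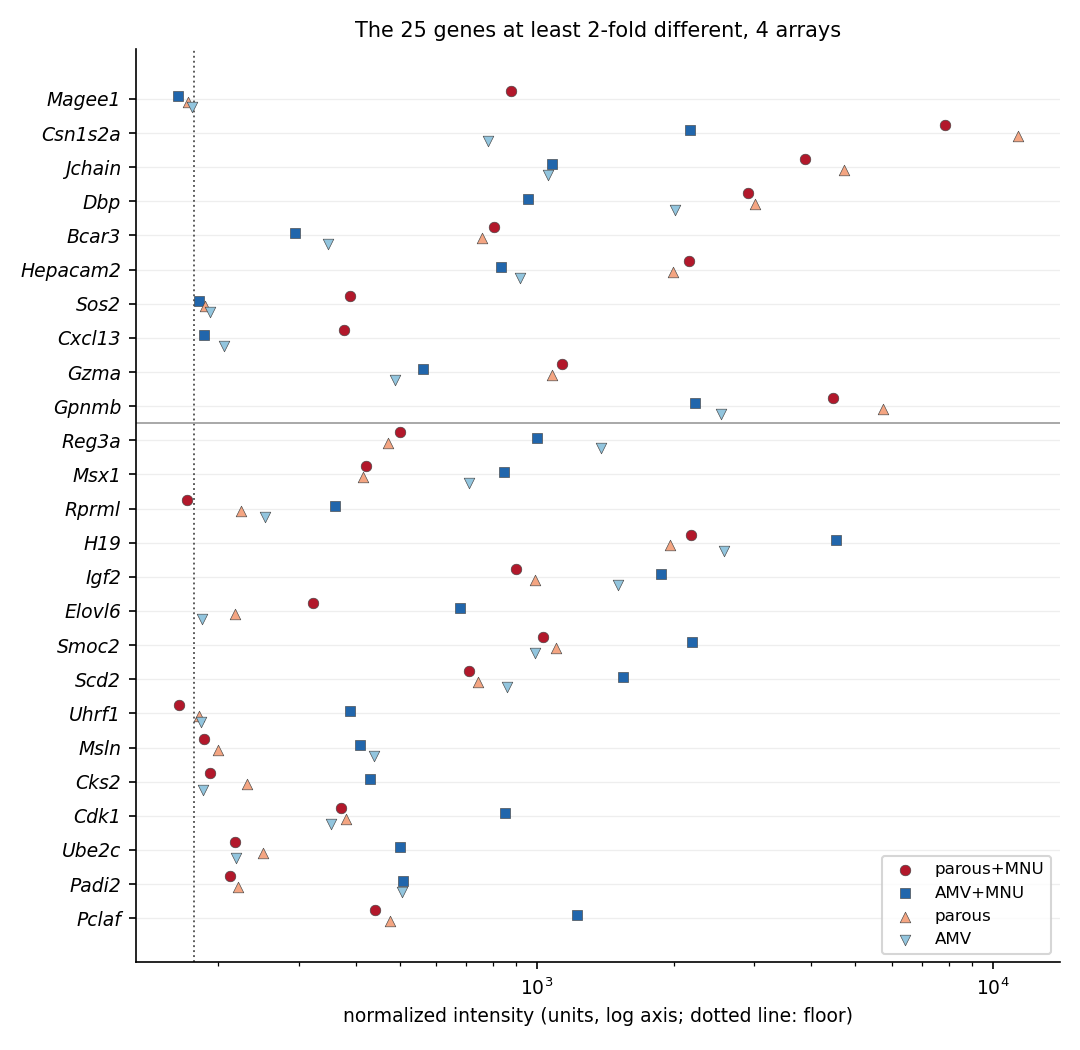
Normalized intensity (horizontal log axis, units) of the 25 genes at least 2-fold different between the MNU arrays, 1 row a gene, ordered by the log2 difference, with the 10 higher genes above the grey line and the 15 lower genes below it; each symbol is 1 array, and a missing symbol is a blank. Csn1s2a, Jchain, Bcar3, Hepacam2, Gzma, Gpnmb, Padi2, Msln and Reg3a differ at least 2-fold in the same direction with and without MNU. For Cdk1, Ube2c, Cks2, Uhrf1, Scd2, Smoc2, Elovl6 and H19 the AMV+MNU symbol lies at least 1.5-fold above the next.

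The gene with the largest difference rests on 1 feature. Magee1, a member of the MAGE protein family, read 875.2 units on parous+MNU, 162.9 on AMV+MNU, 171.6 on parous and 174.9 on AMV. The last 3 lie below the floor, so parous+MNU was higher by at least 4.95-fold. Magee1 passed the filter through parous+MNU alone and so had to be higher there. A different feature of Magee1, below the filter, read 144.0 units on parous+MNU, 148.5 on AMV+MNU, 150.2 on parous and 150.4 on AMV. The high reading was therefore present in 1 of the gene's features.

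Neighbouring feature numbers also read high together on the parous+MNU array. The run around the highest running median over 41 consecutive feature numbers was taken where that median was at least 0.2. In this run, from feature 16778 to 16809, 27 of 30 features were higher there, with a median unfloored difference of 0.48, and 7 were at least 2-fold higher. Of the 12 genes compared in the run, 4 reached 1.5-fold higher, against 0.919% of all genes. The run was chosen by these same differences, so its high counts and median follow from the choice. Against the untreated array of equal parity, the run had a median of 0.34 on parous+MNU and -0.10 on AMV+MNU. The running median ranged from -0.25 to 0.46 over the table and was highest in this run. Sos2, an exchange factor that activates RAS, lies in it and is 1 of the 10 genes above 2-fold at 1.10. Its brightest feature, elsewhere in the table, was blank on parous+MNU. Agtr1b, an angiotensin II receptor, at 0.83, Slc39a4, a zinc importer, at 0.79 and Atp13a1, a transport ATPase of the endoplasmic reticulum, at 0.74 lie in it too. Wwtr1, the transcriptional coactivator TAZ, at 0.75, lies next to its start. Agtr1b and Wwtr1 were below the floor on AMV+MNU, so their differences are bounds. Sos2 and Agtr1b passed the filter through parous+MNU alone and so had to be higher there. With the running median removed Sos2 stood at 0.68. The part of position in these values was not tested further.

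**Figure D3:**
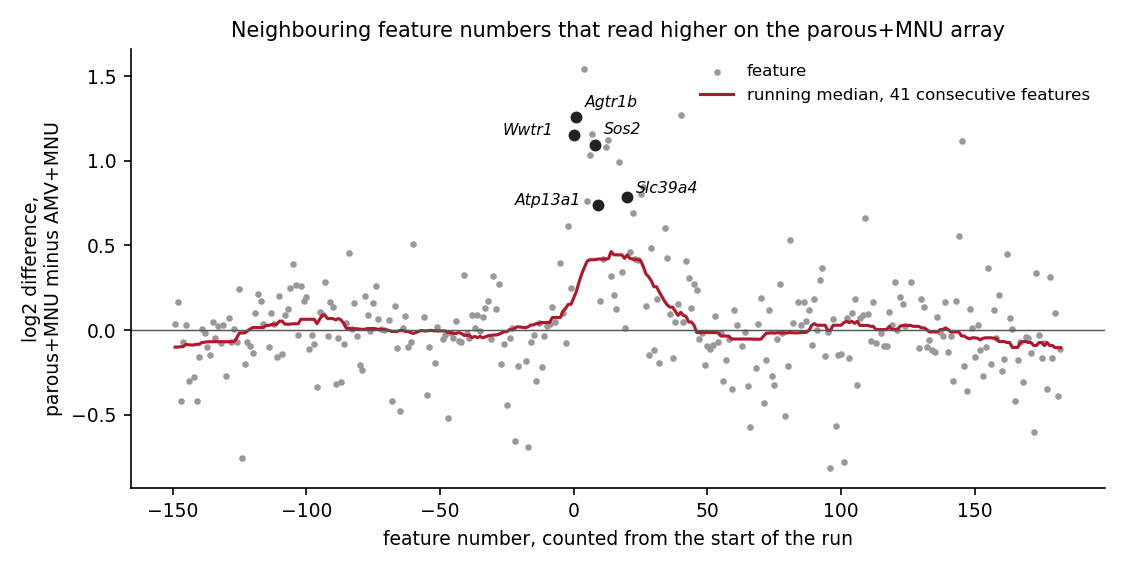
Unfloored log2 difference, parous+MNU minus AMV+MNU (vertical axis), of single features against the feature number counted from the start of the run (horizontal axis); the red line is the running median of 41 consecutive features and black points are the 4 named genes of the run and Wwtr1 beside it. The running median reaches 0.46 inside the run and stays near 0 on either side.

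Genes of DNA replication and cell division were lower on the parous+MNU array than on the AMV+MNU array, and most were highest of all on AMV+MNU. Cells copy their DNA with a helicase and polymerases in S phase, and then divide under control of the kinase CDK1. Pclaf, a factor bound to the replication clamp PCNA, read 441.1 units on parous+MNU, 1222 on AMV+MNU and 477.0 on parous, and was blank on AMV. It was the lowest gene of all, 2.77-fold lower on the parous+MNU array. Uhrf1, which brings the methylating enzyme to new DNA, read 163.6 units on parous+MNU, below the floor, 388.7 on AMV+MNU, 181.0 on parous and 183.2 on AMV. It was at least 2.20-fold lower on parous+MNU than AMV+MNU, its neighbours in feature number had a median of -0.24, and its other feature read 97.0 units on both MNU arrays.

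Other replication genes were lower by smaller amounts. Mcm5, a subunit of the replicative helicase, differed by -0.80, Dut, which clears dUTP, by -0.74, Cdt1, which loads the helicase, by -0.66, and its inhibitor Gmnn by -0.64. The polymerase subunit Pola1 differed by -0.64 and the clamp loader Rfc4 by -0.60. Of 32 listed replication genes 23 were compared, of which 21 lay below 0, 2 at least 2-fold and 8 at least 1.5-fold lower, with a median of -0.45, where 52.7% of all genes lay below 0 and 1.40% were at least 1.5-fold lower. Uhrf1, Gins1 and Tk1 passed the filter through AMV+MNU alone and so had to be lower. Without them 18 of 20 lay below 0, 1 at least 2-fold and 7 at least 1.5-fold lower, with a median of -0.42. Pcna itself was blank on parous+MNU and read 2322 units on AMV+MNU, 1791 on parous and 1741 on AMV.

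In mitosis, Cdk1, the kinase that starts it, read 372.0 units on parous+MNU and 850.8 on AMV+MNU, with 380.4 on parous and 353.2 on AMV. The AMV+MNU array stood alone, and the difference was -1.19. Ube2c, which marks cyclins for destruction, read 217.1 units on parous+MNU and 500.4 on AMV+MNU, with 250.8 on parous and 218.5 on AMV, a difference of -1.20. Cks2, a small subunit of cyclin-dependent kinases, read 191.6 units on parous+MNU and 430.4 on AMV+MNU, with 230.7 on parous and 184.7 on AMV, a difference of -1.17. In all 3 genes the parous+MNU array lay within the untreated arrays or close to them. Mki67, the proliferation marker Ki-67, read 338.8 units on parous+MNU and 647.7 on AMV+MNU, with 367.9 on parous and 285.7 on AMV, and its difference of -0.94 is just under 2-fold.

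Other mitotic genes followed at smaller differences. Stmn1, which destabilizes microtubules, differed by -0.91, Racgap1, a regulator of cytokinesis that was below the floor on parous+MNU, by -0.90, Cdkn3, a phosphatase of CDKs, by -0.85 and the spindle motor Kif11 by -0.80. Of 42 listed mitosis genes 20 were compared, with a median of -0.43. Of these, 16 lay below 0, 3 at least 2-fold and 8 at least 1.5-fold lower. Of all genes, 52.7% lay below 0, 0.260% at least 2-fold and 1.40% at least 1.5-fold lower. Racgap1 and Cenpf passed the filter through AMV+MNU alone, and without them 14 of 18 lay below 0, 7 at least 1.5-fold, with the same median. Without MNU, the medians of parous minus AMV were -0.01 for replication and 0.10 for mitosis. The AMV+MNU array gave the highest of the 4 values in 19 of 22 replication and 16 of 20 mitosis genes with a value on all arrays, against 29.4% of all genes. Without the 5 genes that passed through AMV+MNU alone these counts were 16 of 19 and 14 of 18. Top2a, a topoisomerase of dividing cells, did not pass the filter.

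The start regions of these genes share short elements known from cell cycle promoters. The sequences below are the 250 bases before the start of Pclaf, Cdk1, Cks2 and Mki67, from the RefSeq promoter table (GRCr8). The first entry of each gene was used. Ube2c and Uhrf1, which were also at least 2-fold lower, are not shown. They are shown because these genes differed in the same direction. Capitals mark a CCAAT box (CCAAT), a CHR element (TTTGAA or TTCGAA) or an E2F core (GCGGGAA) on either strand. In Pclaf 2 CCAAT boxes overlap each other, and in Mki67 a CHR element overlaps a CCAAT box.
Pclaf, chr8:75315467-75315716, plus strand: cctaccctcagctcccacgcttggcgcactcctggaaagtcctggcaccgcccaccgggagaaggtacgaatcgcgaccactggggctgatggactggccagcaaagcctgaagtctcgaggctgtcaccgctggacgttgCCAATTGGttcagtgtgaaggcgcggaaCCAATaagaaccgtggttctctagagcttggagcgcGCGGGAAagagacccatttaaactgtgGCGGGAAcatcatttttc
Cdk1, chr20:19265043-19265292, plus strand: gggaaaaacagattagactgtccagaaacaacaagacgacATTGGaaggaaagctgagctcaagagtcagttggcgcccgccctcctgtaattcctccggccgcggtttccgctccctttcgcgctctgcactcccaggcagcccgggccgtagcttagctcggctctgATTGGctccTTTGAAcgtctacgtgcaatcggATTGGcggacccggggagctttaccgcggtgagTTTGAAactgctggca
Cks2, chr17:13727520-13727769, minus strand: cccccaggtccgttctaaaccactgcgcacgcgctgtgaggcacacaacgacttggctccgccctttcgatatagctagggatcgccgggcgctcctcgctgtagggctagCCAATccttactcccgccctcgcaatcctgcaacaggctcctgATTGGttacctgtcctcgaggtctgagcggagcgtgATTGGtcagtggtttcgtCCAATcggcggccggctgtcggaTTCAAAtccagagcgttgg
Mki67, chr1:199952594-199952843, minus strand: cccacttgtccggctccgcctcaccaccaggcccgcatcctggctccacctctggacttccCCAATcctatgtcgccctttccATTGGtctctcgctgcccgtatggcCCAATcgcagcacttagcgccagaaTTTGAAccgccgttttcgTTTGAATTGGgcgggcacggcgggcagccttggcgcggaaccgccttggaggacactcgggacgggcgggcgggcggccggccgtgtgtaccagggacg

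Of these, Pclaf holds 3 CCAAT boxes and 2 E2F cores, Cdk1 3 CCAAT boxes and 2 CHR elements, Cks2 4 CCAAT boxes and 1 CHR element, and Mki67 4 CCAAT boxes and 2 CHR elements. The table held an entry for 37 of the 43 replication and mitosis genes compared. A CCAAT box was found in 26 of them (70.3%), against 35.8% of the 4777 genes compared that have an entry and 34.0% of all 33469 start regions in the table. A CHR element was found in 12 (32.4%), against 11.3% and 17.4%, and an E2F core in 6 (16.2%), against 6.28% and 3.36%. The 16 replication and mitosis genes at least 1.5-fold lower include Uhrf1 and Racgap1, which passed the filter through AMV+MNU alone. Of the 16, 14 had an entry. Of these, 11 held a CCAAT box (78.6%), 4 a CHR element (28.6%, below the share in all 37) and 4 an E2F core (28.6%). These elements are known from cell cycle promoters, so a higher share in these lists than in all genes says nothing about parity. A match of letters is a description of the sequence, and binding of a factor was not measured.

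Fatty acid synthesis genes were also lower on the parous+MNU array and most were highest on AMV+MNU. Fat cells and secretory cells make fatty acids from citrate through acetyl-CoA, and lengthen and desaturate them. Scd2, a stearoyl-CoA desaturase, read 707.9 units on parous+MNU and 1543 on AMV+MNU, with 741.7 on parous and 861.1 on AMV, 2.18-fold lower on parous+MNU than AMV+MNU. Elovl6, an elongase of palmitate, read 323.4 units on parous+MNU and 678.3 on AMV+MNU, with 217.6 on parous and 184.0 on AMV, 2.10-fold lower. For Elovl6 the parous+MNU array lay above both untreated arrays and below AMV+MNU, whereas for Scd2 it lay a little below both. Me1, malic enzyme, which supplies NADPH, differed by -0.85, Acly, which splits citrate, by -0.79, Pc, pyruvate carboxylase, by -0.52. Thrsp, a regulator of lipogenesis, read 5049.8 units on parous+MNU and 7060.1 on AMV+MNU, with 2504 on parous and 1956 on AMV, a difference of -0.48, and both MNU arrays lay above both untreated arrays. Acss2, which makes acetyl-CoA from acetate, went the other way at 0.36. Of 18 listed fatty acid synthesis genes 10 were compared, 8 below 0, against 52.7% of all genes, with a median of -0.50. Without the filter the median was -0.16 relative to all genes. Of the 9 genes with 4 values 7 were highest on AMV+MNU, against 29.4% of all genes. Fasn, fatty acid synthase, was blank on both MNU arrays.

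Cholesterol synthesis genes differed by less. Sqle, squalene epoxidase, differed by -0.59, Lss, lanosterol synthase, by -0.40, Fdps, which makes farnesyl diphosphate, by -0.39 and Idi1, an isomerase of the pathway, by -0.33. The median over 10 of 20 genes was -0.17, with 9 below 0, against 52.7% of all genes. Of the 10, 9 were highest on AMV+MNU, against 29.4% of all genes. Adipocyte genes had a median of -0.46 over 7 of 20, or -0.50 over 6 without Lipe, which passed the filter through AMV+MNU alone. Gpd1, which makes glycerol phosphate for triglyceride, read 4687 units on parous+MNU and 8408 on AMV+MNU, with 3144 on parous and 3499 on AMV, a difference of -0.84. The insulin-dependent glucose transporter Slc2a4 differed by -0.77, the lipid droplet protein Cidec by -0.54 and Dgat2, which forms triglyceride, by -0.46. Pparg, the regulator of fat cell formation, stood at 0.19 and Lep, leptin, at 0.00. The adipocyte median became -0.18 relative to all genes when a gene's features were averaged, and Fabp4 and Adipoq, the genes that define fat cells best, were blank on both MNU arrays. The part of fat cell content in the lipid synthesis values was not tested.

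Genes of mitochondrial respiration were lower by small amounts. Of 22 oxidative phosphorylation genes compared, of 45 listed, 20 lay below 0, against 52.7% of all genes. Their median was -0.16, and none was 1.5-fold different. Atp5mc3, a subunit of the ATP synthase ring, differed by -0.40, Cycs, cytochrome c, by -0.39, Ndufv2 of complex I by -0.37 and Atp5f1c of ATP synthase by -0.35. The muscle form Cox6a2 stood at 0.27. The AMV+MNU array was the highest of the 4 for 20 of the 22 genes, against 29.4% of all genes. Cytosolic ribosomal protein genes had a median of 0.01 over 15 of 61, with Rpl36 at 0.32 and Rps15 at -0.17.

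**Figure D4:**
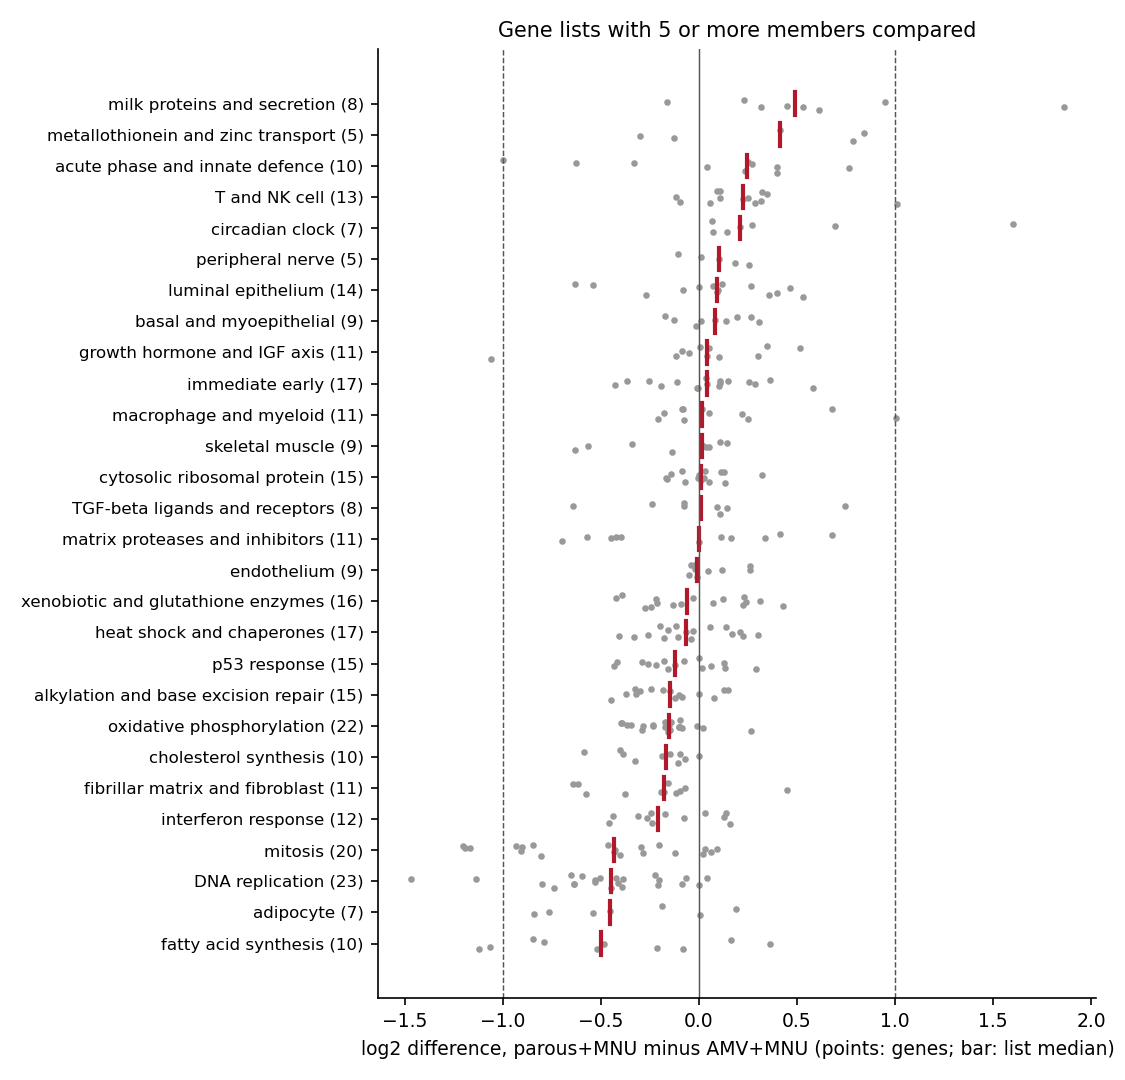
Log2 difference, parous+MNU minus AMV+MNU (horizontal axis), of the genes in each list with 5 or more members compared (grey points), with the list median as a red bar and the number compared in brackets. Fatty acid synthesis, adipocyte, DNA replication and mitosis lists have the lowest medians, from -0.50 to -0.43, and milk proteins the highest, 0.49.

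Igf2, H19, Msx1, Smoc2 and Rprml were also at least 2-fold lower. Igf2, a fetal growth factor, read 898.6 units on parous+MNU and 1875 on AMV+MNU, with 989.4 on parous and 1510.1 on AMV, a difference of -1.06. H19, the non-coding RNA next to Igf2 in the same imprinted region, read 2176 units on parous+MNU and 4531 on AMV+MNU, with 1959 on parous and 2570.5 on AMV, a difference of -1.06. For both, AMV+MNU was the highest array, and the difference without MNU was -0.61 for Igf2 and -0.39 for H19. Msx1, a homeobox factor of limb and skin mesenchyme, read 420.7 units on parous+MNU and 848.2 on AMV+MNU. It read 415.8 on parous and 709.0 on AMV, and differed by -1.01 with MNU and -0.77 without. Smoc2, a secreted matrix protein, read 1032 units on parous+MNU and 2190.5 on AMV+MNU, with 1099.8 on parous and 992.7 on AMV. Its difference of -1.09 came with AMV+MNU alone above the others, and its other feature, below the filter, read 167.2 units on parous+MNU and 210.4 on AMV+MNU. Rprml, a relative of the cell cycle protein reprimo, was below the floor on parous+MNU and at least 2.04-fold lower than on AMV+MNU.

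Several further genes lay just under 2-fold lower. Crabp1, a retinoic acid binding protein, differed by -0.90, Igsf10, an immunoglobulin-like protein of mesenchyme, by -0.86, Itm2a, a membrane protein of cartilage and T cells, by -0.86 and Hsd11b2, which inactivates glucocorticoids, by -0.92. Csap1 stood at -0.86, with parous+MNU below the floor. In the list of fibrillar matrix and fibroblast genes 10 of 11 compared, of 25 listed, lay below 0, against 52.7% of all genes. Their median was -0.18. Ltbp2, a matrix protein of elastic fibres, differed by -0.64, Loxl1, which crosslinks elastin, by -0.62, Lum, a collagen-binding proteoglycan, by -0.58 and Col5a1 by -0.38. Ccn2, a growth regulator of fibroblasts, stood at 0.45. The fibroblast markers Pdgfra and Thy1 stood at -0.18 and -0.16, within the robust SD of all genes.

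Matrix proteases and inhibitors had a median of 0.00 over 11 of 22 with members on both sides of 0. Ctsk, cathepsin K, differed by -0.70, the membrane collagenase Mmp14 by -0.57, Mmp23 by -0.45 and the proteoglycan-cleaving Adamts1 by -0.42. Mmp3, stromelysin, stood at 0.42 beside Mmp12. The inhibitor Timp2 stood at -0.40.

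Both Padi2, which converts arginine to citrulline in proteins, and Msln, the surface protein mesothelin, were lower in parous glands whether or not MNU was given. Padi2 read 212.6 units on parous+MNU and 508.5 on AMV+MNU, with 220.5 on parous and 505.2 on AMV, a difference of -1.26 with MNU. Msln read 185.8 units on parous+MNU and 409.8 on AMV+MNU, with 200.1 on parous and 439.5 on AMV, a difference of -1.14. The parous arrays of each lay close together, and so did the virgin arrays. Parous values of both genes were near the floor.

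Epithelial lists lay near all genes. Luminal genes had a median of 0.09 over 14 of 26 and basal and myoepithelial genes 0.08 over 9 of 16. Among luminal genes Krt7, a keratin of ducts, differed by -0.63 and Cldn7, a tight junction claudin, by -0.54, while Cd24 stood at 0.47, Epcam at 0.40, Cldn3 at 0.36 and Aldh1a3, an enzyme of retinoic acid synthesis, at -0.27. Of the basal genes Tagln, an actin-binding protein of smooth muscle, stood at 0.31, the oxytocin receptor Oxtr at 0.27, P-cadherin Cdh3 at 0.19, Krt14 at -0.18 and Krt5 at -0.13. None was 1.5-fold different apart from Krt7.

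Lists for other cells of the gland had medians near 0. Endothelial genes had a median of -0.01 over 9 of 16, with Pecam1 and Cdh5 both at 0.26. Skeletal muscle genes had 0.01 over 9 of 20, though Actn3, a fast-fibre actinin, differed by -0.63 and the myosin light chain Myl11 by -0.57. Peripheral nerve genes had 0.10 over 5 of 12, with Prx, a myelin protein, at 0.26. Of the erythrocyte genes only Alas2, the enzyme of haem synthesis, was compared, at 0.32.

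Genes that respond to DNA damage, to which MNU leads, differed little between the arrays. Of 24 genes of the p53 response 15 were compared, 10 below 0, against 52.7% of all genes. Their median was -0.12, and none was 1.5-fold different. Cdkn1a, the CDK inhibitor p21, read 290.0 units on parous+MNU and 337.2 on AMV+MNU, with 275.1 on parous and 306.7 on AMV, a difference of -0.22. Bax, which opens mitochondria in apoptosis, differed by -0.43, Ddit4, an inhibitor of mTOR, by -0.42, Ccng1 by -0.29 and Mdm2, which degrades p53, by -0.18, and Gadd45a stood at 0.29.

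Mgmt, which takes methyl groups off guanine and so reverses the main mutagenic lesion of MNU, read 616.8 units on parous+MNU and 761.1 on AMV+MNU, with 610.7 on parous and 779.2 on AMV. Its difference was -0.30 with MNU and -0.35 without, so the parous arrays lay below the virgin arrays by a similar amount in each. Over 15 of 21 alkylation and base excision repair genes the median was -0.15, with 12 below 0, against 52.7% of all genes. Without Exo1, which passed the filter through AMV+MNU alone, 11 of 14 lay below 0. Fen1, a flap nuclease that also serves replication, differed by -0.45, the mismatch repair gene Pms2 by -0.37, Ogg1, which removes oxidized guanine, by -0.33 and Apex1, the main abasic site nuclease, by -0.32. Mpg, which removes methylated adenine, stood at -0.18. Xenobiotic and glutathione enzymes had a median of -0.06 over 16 of 34, from Gsta4, a glutathione transferase, at -0.42 to the cytochrome Cyp2e1 at 0.43.

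Among growth signals, Tgfb3 and Igf2 were the most different. Tgfb3, a TGF-beta ligand made by involuting gland, read 1049.5 units on parous+MNU and 626.5 on AMV+MNU, with 865.6 on parous and 727.6 on AMV. Its difference was 0.74, the parous+MNU array was the highest and AMV+MNU the lowest, while 8 of 20 TGF-beta genes had a median of 0.01. Apart from Igf2, the growth hormone and IGF axis held Igfbp3, an IGF carrier, at 0.52, Stat5a, the factor that carries prolactin signals, at 0.35 and Ghr, the growth hormone receptor, at -0.09, with a median of 0.04 over 11 of 20. Igf1 was blank on both MNU arrays. Prlr, the prolactin receptor, read 396.4 units on parous+MNU and 372.3 on AMV+MNU. Areg, the EGF receptor ligand amphiregulin, was blank on parous+MNU and read 2741 units on AMV+MNU, 1162 on parous and 2643 on AMV. Erbb2 was the only gene of 11 in the EGF receptor family list that was compared, at 0.39.

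Of 3 metallothioneins compared, which bind zinc and copper, Mt2A and Mt1 were higher on parous+MNU and Mt3 was lower. Mt2A read 5235 units on parous+MNU and 2924 on AMV+MNU, with 6129 on parous and 2834 on AMV, a difference of 0.84, while Mt1 differed by 0.41 and Mt3 by -0.13. Of 11 listed genes 5 were compared, with a median of 0.41 that includes Slc39a4 from the run of neighbouring features. The zinc exporter Slc30a4 stood at -0.30. Among 26 immediate early genes 17 were compared, with a median of 0.04. Fos, blank on both untreated arrays, differed by 0.58, Fosl2 by -0.43, the nuclear receptor Nr4a1 by -0.37 and Zfp36, which destabilizes cytokine mRNA, by 0.36. Heat shock proteins and chaperones had -0.07 over 17 of 24, with the mitochondrial chaperonin Hspd1 at -0.41 and Hsp90aa1 at -0.33.

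The remaining genes just under 2-fold higher were of several kinds. Rnf5, a ubiquitin ligase of the endoplasmic reticulum, read 3204 units on parous+MNU and 1679 on AMV+MNU, with 3974 on parous and 1605 on AMV, a difference of 0.93. Clu, clusterin, an extracellular chaperone abundant in involution, differed by 0.88, and was blank on the parous array. Slc14a1, a urea transporter, differed by 0.86, and by less, 0.55 relative to all genes, when its features were averaged. Gabbr1, a GABA-B receptor subunit, Tspan18, Prph2 and Hrh4, a histamine receptor, lay between 0.79 and 0.81. In these 4 genes AMV+MNU was the lowest array.

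The pair of arrays without MNU shares no array with the MNU pair, so it gives each gene a separate reading of parity. There, 19 of 6007 genes were at least 2-fold higher in the parous gland (0.316%) and 7 at least 2-fold lower (0.117%). Of the 9 higher genes with values in both pairs, 7 were above 0 without MNU, 6 of them at least 2-fold: Csn1s2a, Jchain, Bcar3, Hepacam2, Gzma and Gpnmb. Magee1 stood at 0.00 and Sos2 at -0.04. Of the 14 lower genes with values in both pairs, 9 were below 0 without MNU, and 3 were at least 2-fold lower, namely Padi2, Msln and Reg3a. Igf2 stood at -0.61, H19 at -0.39 and Msx1 at -0.77, whereas Cdk1 stood at 0.11, Ube2c at 0.20, Cks2 at 0.32, Smoc2 at 0.15 and Elovl6 at 0.24. Whether the parity difference itself differed with MNU could not be tested with 1 array a group.

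On the higher side, larger differences with MNU shared their direction without it more often. Of genes at least 2-fold different with a nonzero value in both pairs, 7 of 8 higher (87.5%) and 9 of 14 lower (64.3%) did. Among genes 1.5 to 2-fold higher with MNU, 34 of 40 (85.0%) lay above 0 without it, with a median of 0.45 there. Among genes 1.5 to 2-fold lower, 44 of 64 (68.8%) lay below 0 without it, with a median of -0.13. From 1.25 to 1.5-fold the shares were 65.2% of 290 higher genes and 64.3% of 347 lower genes. On the lower side the 3 shares above 1.25-fold thus lay between 64.3% and 68.8%, in no order of size. Below 1.25-fold the shares were 50.9% of 2331 higher genes and 57.1% of 2542 lower genes. Genes of 1 array are not independent replicates, and these shares are descriptions of these 4 arrays.

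**Figure D5:**
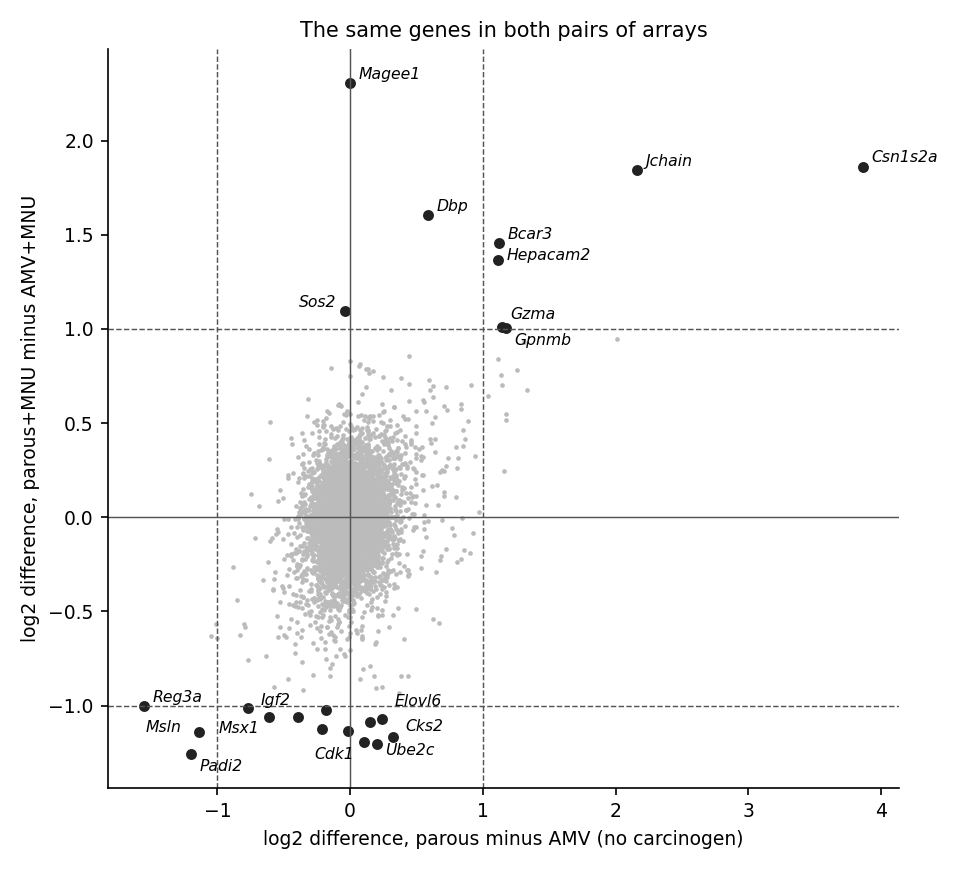
Each point is a gene with a value on all 4 arrays, placed by its log2 difference without carcinogen, parous minus AMV (horizontal axis), and with it, parous+MNU minus AMV+MNU (vertical axis); dashed lines mark 2-fold and black points are genes at least 2-fold different with MNU, most with their names. Csn1s2a, Jchain, Bcar3, Hepacam2, Gzma and Gpnmb lie in the upper right, Padi2, Msln and Reg3a in the lower left, and Cdk1, Ube2c, Cks2 and Elovl6 below 0 with MNU at values from 0.11 to 0.32 without it.

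The 25 genes were chosen by 1 MNU array exceeding the other, so which MNU array is the higher follows from the choice, and the place of the untreated arrays is what remains to describe. In 8 of the 14 lower genes with 4 values AMV+MNU exceeded the next array by at least 1.5-fold. How many of all genes have such a gap is not given here. In Padi2, Msln, Reg3a, Igf2, Msx1 and Rprml the AMV array was within 1.5-fold of AMV+MNU. For Msln and Reg3a the AMV array was above AMV+MNU. Magee1, Sos2 and Cxcl13 passed the filter through parous+MNU alone, and Uhrf1 through AMV+MNU alone. The share of all genes with both parous arrays above or below both virgin arrays is not given here.

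All 25 genes kept their direction under each of 13 other settings of scaling, background, floor, filter, gene summary and position that gave them a value. Of the 25 genes, 12 stayed at least 2-fold different under every one of them: Csn1s2a, Jchain, Dbp and Bcar3 higher, and Pclaf, Ube2c, Cdk1, Scd2, Elovl6, Igf2, H19 and Msx1 lower. These differences were not taken relative to all genes, whose median was -0.37 as deposited, which makes higher genes easier to lose there. Relative to that median, Hepacam2 stayed at 1.20 or more, and Msx1 stood at -0.99 at its weakest. Of the 25 genes, 5 have another feature on the array and 20 have 1. Among 735 genes with several kept features, the brightest was at least 1.5-fold different in 9, and the next brightest feature had the same sign in 7 of these and reached 1.25-fold in 3.

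Blanks took bright features out of the comparison. A value was missing on parous+MNU alone for 528 features, on AMV+MNU alone for 399 and on both for 267. The features blank on both had a median of 3863 units on the parous array and 3645 on the AMV array, against 211 on each for the members. Bright genes of milk, fat cells and growth factors, such as Fasn at 6451 units on parous and 6292 on AMV, Fabp4 at 8133 and 11765 and Igf1 at 14348 and 16697, are therefore not part of these counts. Features with no gene name made up 3743 of the kept members, of which 7 were higher and 3 lower on parous+MNU by 2-fold or more.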

How the data were processed

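The authors' deposited values are intensities of 20500 features on 4 arrays, 1 array for each of the parous+MNU, AMV+MNU, parous and AMV groups. The sources used here do not give the platform, the image processing and background steps, the meaning of blanks, or whether the 5 RNAs of a group were pooled. The deposited intensity medians differed by up to 1.33 times between arrays, and precision is limited by having so few arrays. No further background was subtracted.

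Each array was mapped to a common quantile curve, the geometric mean over the features with a value on all 4 arrays, with interpolation for the other features. Blanks were never filled. Values were floored at the pooled 40th percentile (176.9 units) and taken to log2, and a feature was kept if at least 1 of the 4 arrays exceeded the pooled 50th percentile (214.9 units). The brightest kept feature with values on both MNU arrays stood for its gene. Gene symbols came from the platform annotation: 12750 features had 1 symbol, of which 12720 were matched to a current name in RefSeq (GRCr8), 5 had several and 7745 none. With 1 array a group there is no residual spread, so differences are described by size, with at least 2-fold as the call.

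Named genes were those at least 2-fold different, the 10 next on each side, the genes with the largest differences in 32 gene lists, and a fixed set of genes of interest, with those of the feature run, of other features and of the last observations chosen after their values were seen. Members and lists were chosen with earlier results of these data known. The steps were tested on simulated data, with known differences put into named features well above the floor that had a value on every array. Genes near the floor were not covered by that test. Alternatives were other scalings, a subtracted background, other floors, filters, gene summaries and fold thresholds, and, chosen after seeing the data, removal of the running median of 41 neighbouring features. Python 3.11.15, pandas 2.3.3, numpy 2.4.6, statsmodels 0.14.6 (loess) and matplotlib 3.10.9 were used.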

Additional observations from a re-analysis of the deposited data

Results flagged for a closer look

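Cks2, Elovl6 and Ube2c were lower on the parous+MNU array than on AMV+MNU and higher on the parous array than on AMV. Their untreated differences were 0.32 for Cks2, 0.24 for Elovl6 and 0.20 for Ube2c, opposite in sign to -1.17, -1.07 and -1.20 with MNU. These differences between pairs were not tested, and each sign rests on 1 array a group.

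Among the features with no gene name, outside the gene comparison, 7 were higher and 3 lower on parous+MNU by 2-fold or more. Feature 17367 read 1360.3 units on parous+MNU and 356.3 on AMV+MNU, with 1099.8 on parous and 391.2 on AMV. Feature 20283 read 4253.5 units on parous+MNU and 1619 on AMV+MNU, with 3445 on parous and 1333 on AMV. Feature 17367 differed by 1.93 with MNU and 1.49 without, and feature 20283 by 1.39 and 1.37. Feature 20232 was the reverse, at 559.5 units on parous+MNU and 1201 on AMV+MNU, with 582.2 on parous and 1253 on AMV. Feature 15181 read 346.6 units on parous+MNU and 929.8 on AMV+MNU, with 346.8 on parous and 265.5 on AMV, so AMV+MNU stood apart.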

How the results depend on the processing

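No paired analysis was possible because each group has 1 array, and no replicate could be left out. The counts of 10 higher and 15 lower genes became 5 and 63 as deposited, where the median of all genes was -0.37, and 18 and 29 with the 1st percentile of each array subtracted. Counted by feature, 17 were higher. At a fold threshold of 1.5 the counts were 53 higher and 81 lower, and at 3 they were 4 and 0. In the remaining alternatives they lay between 7 and 12 higher and between 10 and 18 lower. All 25 genes at least 2-fold different kept their direction in each alternative that gave a value. Another 173 genes were followed through the alternatives. Of these, 9 crossed 0 relative to all genes in some alternative, all of them within 0.234 of 0 otherwise, among them Krt5, Cdh3, Exo1, Mt3 and Cd74. Some genes named in the text, such as Pola1, Kif11, Scg3 and Porcn, were not followed. Gzma, Cxcl13, Gpnmb, Reg3a, Rprml, Smoc2, Sos2, Uhrf1, Msln and Hepacam2 fell under 2-fold in at least 1 alternative: with neighbours removed Gzma stood at 0.95, Reg3a at -0.99 and Uhrf1 at -0.90, with Rprml and Smoc2 just under 2-fold, and as deposited Hepacam2 stood at 0.92. Relative to all genes, Hepacam2 stayed at 1.20 or more. Magee1, Cks2 and Padi2 had no value under the filter on both MNU arrays. Relative to all genes, the fatty acid synthesis median was -0.16 and the metallothionein and zinc transport median 0.00 without the filter, and the adipocyte median was -0.18 with a gene's features averaged. Dim genes near the floor and bright blank features limit what could be compared.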

Other observations

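Scg3, Tph1, Wnt5b, Ret, Bex1 and Penk were lower in parous gland in both pairs of arrays. These 6 genes were chosen after their values were seen and stand for no group. Scg3, a secretory granule protein, read 471.1 units on parous+MNU and 796.8 on AMV+MNU, with 357.8 on parous and 609.3 on AMV. Tph1, which starts serotonin synthesis, read 813.1 units on parous+MNU and 1254 on AMV+MNU, with 686.1 on parous and 1221 on AMV. Scg3 differed by -0.76 with MNU and -0.77 without, and Tph1 by -0.63 and -0.83. Wnt5b, a WNT ligand, differed by -0.73 with MNU and -0.63 without, and Ret, a receptor kinase, by -0.67 and -0.41. Bex1, a small adaptor of neurons, differed by -0.62 and -0.50. Penk, the precursor of enkephalins, differed by -0.84 and -0.28.

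Other genes, also chosen after their values were seen, were higher in parous gland in both pairs. Porcn, which acylates WNT proteins, read 7043 units on parous+MNU and 4092 on AMV+MNU, with 8241 on parous and 3445 on AMV. Car2, carbonic anhydrase, read 995.0 units on parous+MNU and 590.4 on AMV+MNU, with 1081 on parous and 490.7 on AMV. Ltc4s, which makes leukotriene C4, read 5664 units on parous+MNU and 3484 on AMV+MNU, with 5546 on parous and 2956 on AMV. For all 3 genes both parous arrays lay above both virgin arrays, an order whose share among all genes is not given here. Trem2, a lipid receptor of macrophages, differed by 0.65 with MNU and 1.04 without, and Aldoc, an aldolase, by 0.59 and 0.70. Scnn1b, a subunit of the epithelial sodium channel, differed by 0.62 and 0.45.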
